A study of Mus musculus with 6 samples.

Results

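Dendritic cells take up antigen in the tissue and present it to lymphocytes, and 9 genes known to mark them were followed here: Flt3, Zbtb46, Batf3, Clec9a, Itgae, Cd209a, Clec10a, Itgax and Siglech. They were chosen by name, as the lines of the raw count table that equal these symbols, with earlier results of these data known. All 9 were found, among 48440 genes in the table, of which 26823 had at least 1 read. All 9 also had enough reads to be tested.

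RNA was sequenced from the murine tissue entangled with cartilage that had been engineered from bone marrow stromal cells of the rabbit (BEC) and kept under the skin of the mice for 12 weeks. The hosts were male BALB/c nude mice, 6 to 8 weeks old when they were bought. Nude mice have no functional thymus, so mature T cells are scarce, while dendritic cells, B cells and natural killer cells are present. In both groups BEC was wrapped in an electrospun membrane of polycaprolactone and collagen, which held no drug in the 0%-Axitinib group (3 samples) and was made with axitinib at a nominal 3% of the weight of polymer and collagen in the 3%-Axitinib group (3 samples). Axitinib is an oral inhibitor of the VEGF receptor tyrosine kinases and was used by the study to keep vessels out of the cartilage. The labels call the first group untreated, and it was taken as the 0%-Axitinib group from the deposited design and treatment protocol. A pair of constructs of 1 group was placed in each mouse and the mice are not named, so samples of a group may share a mouse, and p-values measure the spread between samples only. The question was how the expression of dendritic cell genes in the host tissue differed between membranes with and without the drug.

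Reads counted on genes numbered 17761968, 16716411 and 18005908 in replicates 1, 2 and 3 of the 0%-Axitinib group, and 9225518, 11686084 and 18403795 in those of the 3%-Axitinib group. The limit of detection was set at 3 reads, which is 0.163 to 0.325 CPM (read count relative to the size of the library) depending on the sample, and it covers counting error only. Reads that mapped nowhere in the mouse genome made up 8.08% ± 5.99 (SD, n = 3) of the 0%-Axitinib libraries and 31.5% ± 15.9 (SD, n = 3) of the 3%-Axitinib libraries, with the highest share, 48.4%, in replicate 1 of the 3%-Axitinib group. The part of these shares in the results was not tested. By the methods of the study, the samples were harvested together with the entangled murine tissue, and reads were mapped to the mouse genome. Whether RNA of the rabbit cells was among the reads was not tested.

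Some libraries stood apart from their group. Replicate 3 of the 0%-Axitinib group had Spearman correlations of 0.891 and 0.893 across genes with the other 0%-Axitinib samples, which correlated at 0.978 with each other. Genes of neutrophils summed to 19425 CPM in this sample and to between 72.2 and 183 CPM in the other 5. It also held 295 CPM of B cell genes, against at most 11.02 CPM elsewhere. Genes of skeletal muscle summed to 12178 and 6903 CPM in replicates 1 and 3 of the 3%-Axitinib group, against 15.9 CPM in replicate 2 of that group and at most 124 CPM in the 0%-Axitinib samples. Keratin genes of the epidermis were high in replicate 2 of the 0%-Axitinib group alone, where Krt1 reached 273 CPM. Log2 fold changes of the dendritic cell genes named at the start are therefore given with and without replicate 3 of the 0%-Axitinib group. Ratios to leukocyte and macrophage genes are given without that sample for some genes only. Levels per kilobase and the comparison of profiles use all samples. The part of the muscle and epidermal RNA in these results was not tested.

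Conventional dendritic cells arise in the bone marrow from progenitors that need the receptor FLT3 and its ligand. They fall into type 1 cells, which depend on BATF3 and IRF8 and present material from dead cells to CD8 T cells, and type 2 cells, which prime CD4 T cells. Plasmacytoid dendritic cells are a separate lineage known for releasing type I interferon. In skin and in tissue around implants these cells lie among macrophages, with which they share several surface proteins, among them CD11c (Itgax) and the lectin CLEC10A.

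Most of these genes were lower with the drug. By the criterion of the study (fold change of at least 1.5 and unadjusted p of at most 0.05, applied to the quasi-likelihood test of edgeR), 6 of the 9 genes were lower in the 3%-Axitinib group, namely Flt3, Zbtb46, Clec9a, Itgae, Cd209a and Siglech, where 11.7% of the 15257 tested genes met it in that direction. None of the 9 was higher in edgeR, DESeq2 or limma-voom, where edgeR called 9.54% of all tested genes higher. For 5 genes (the same without Siglech) all samples with the drug were below all samples without it, which was the case for 16.6% of all tested genes. With the p-values adjusted over the whole table (Benjamini-Hochberg), none of the 9 reached 0.05 in edgeR, where 1 gene of all those tested did (0.00655%), and none reached it in limma-voom. The unadjusted p was at most 0.05 for 6 of them in edgeR (23.5% of all tested genes), and with DESeq2's Wald test 6 of the 9 were lower with an adjusted p up to 0.05 (7.13% of all genes with an adjusted p in DESeq2). The median log2 fold change was -2.26 over the 9 genes and -0.03 over all tested genes. Flt3, Clec9a and Cd209a reached the cutoff of the filter on low counts in 3 of the 0%-Axitinib but 2 of the 3%-Axitinib samples. For Siglech and Itgae it was 3 but 1. These genes thus passed the filter only with the help of the group where they were higher, so the count of 6 is a description. Without that filter, 6 of the 9 also met the criterion (9.44% of the 26823 genes tested then). In bulk tissue, fewer dendritic cells and less of these RNAs per cell cannot be told apart.

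Without replicate 3 of the 0%-Axitinib group, 6 of the 9 genes again met the criterion in edgeR (13.7% of all genes tested then), but Itgax had come in and Siglech had dropped out. The median over the 9 genes was then -1.85, against 0.02 over the same genes as tested with all samples. Zbtb46 had an adjusted p of 0.0498 in that edgeR fit, the only 1 of the 9 at or below 0.05, where 7.98% of all genes tested then were.

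**Figure D1:**
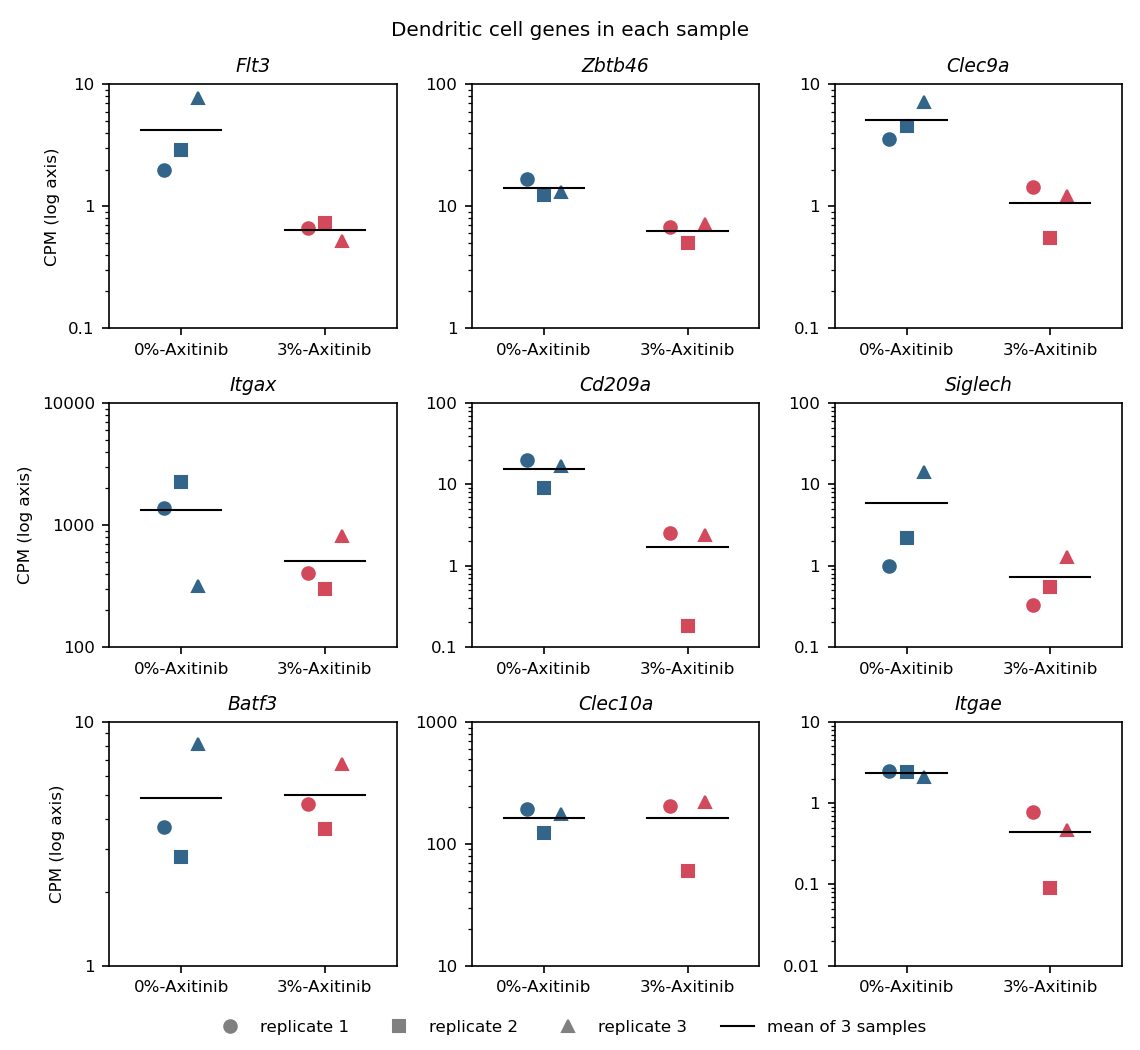
Level of each of the 9 dendritic cell genes in each sample, as CPM on a logarithmic axis, with circles, squares and triangles for replicates 1, 2 and 3 and a line at the mean of 3 samples. The 3%-Axitinib samples lie below all 0%-Axitinib samples for Flt3, Zbtb46, Clec9a, Cd209a and Itgae, and the groups overlap for Itgax, Siglech, Batf3 and Clec10a.

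The levels themselves differed widely between the genes. Per kilobase of exon, Itgax had the highest mean in the 0%-Axitinib group, at 275 ± 202 CPM per kilobase (mean ± SD, n = 3), followed by Clec10a at 56.5 ± 13.0. Cd209a stood next at 9.67 ± 3.53 CPM per kilobase. The lead of Itgax was much larger in replicates 1 and 2, with 1392 and 2253 CPM, than in replicate 3, with 316 CPM. The other 6 genes lay between 0.510 CPM per kilobase (Itgae) and 3.05 CPM per kilobase (Batf3). Of these, Batf3, Siglech, Zbtb46 and Clec9a did not differ beyond their spread, with Siglech at 1.72 ± 2.17, Zbtb46 at 1.65 ± 0.271 and Clec9a at 1.56 ± 0.559. In the 3%-Axitinib group Itgax (106 ± 56.6 CPM per kilobase) and Clec10a (56.0 ± 30.8) still led, and the third was now Batf3 at 3.13 ± 0.983, with Cd209a at 1.07 ± 0.829.

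Flt3 encodes the receptor tyrosine kinase that drives dendritic cell development. Replicates 1, 2 and 3 of the 0%-Axitinib group had 1.98, 2.92 and 7.82 CPM of it. Those of the 3%-Axitinib group had 0.660, 0.729 and 0.521 CPM, from 6, 8 and 9 reads. An antisense gene that overlaps it, Gm26597, had no read in any sample. The 3%-Axitinib samples lay close together and below every 0%-Axitinib sample, and replicate 3 was the highest of the 0%-Axitinib group. The fitted log2 fold change was -2.73 (SE 0.63, edgeR adjusted p = 0.0973), and without that sample it was -1.95 (SE 0.45, edgeR adjusted p = 0.0512), a smaller fold that still met the criterion.

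Zbtb46 encodes a zinc finger transcription factor of conventional dendritic cells and their committed progenitors, and is also known in endothelial cells. It was at 16.7, 12.4 and 13.1 CPM without the drug and at 6.71, 5.01 and 7.12 CPM with it. The groups did not overlap, and neither group held a sample far from its others. The difference on the log2 scale was -1.16 (SE 0.28, edgeR adjusted p = 0.0989) and -1.21 (SE 0.27) without replicate 3 of the 0%-Axitinib group. Among the 6 genes that met the criterion it had the smallest log2 fold change and the smallest SE.

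Batf3 encodes the AP-1 family factor on which type 1 dendritic cells depend, and it is also induced in other activated leukocytes. It stood at 3.71, 2.80 and 8.09 CPM in the 0%-Axitinib group and at 4.62, 3.64 and 6.72 CPM in the 3%-Axitinib group. The groups overlapped fully, and the highest sample of each was replicate 3. The log2 fold change of 0.04 (SE 0.49, edgeR adjusted p = 0.966) had no stable sign, since it ranged from -0.24 to 0.62 as single samples were left out. The highest value, 0.62 (SE 0.39), was that without replicate 3 of the 0%-Axitinib group.

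Clec9a encodes DNGR-1, the receptor by which type 1 dendritic cells recognise actin filaments exposed on dead cells. Levels of 3.60, 4.61 and 7.17 CPM in the 0%-Axitinib group stood against 1.43, 0.547 and 1.22 CPM in the 3%-Axitinib group. All 3%-Axitinib samples were below all 0%-Axitinib samples, and replicate 2 of the 3%-Axitinib group, with 6 reads, was the lowest. In the fit Clec9a had a log2 fold change of -2.26 (SE 0.50, edgeR adjusted p = 0.0972) and -1.94 (SE 0.48) without replicate 3 of the 0%-Axitinib group. The gene overlaps Clec1b on the same strand of chromosome 6, so reads in shared sequence could be counted for neither gene. Clec1b itself reached 42.6 CPM in replicate 3 of the 0%-Axitinib group and at most 1.11 CPM in the other samples.

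Itgae encodes the integrin chain CD103, found on type 1 dendritic cells of skin and gut and on T cells that reside in epithelia. It was even in the 0%-Axitinib samples, at 2.51, 2.39 and 2.12 CPM. The 3%-Axitinib samples had 0.770, 0.0911 and 0.463 CPM, from 7, 1 and 8 reads. The groups did not overlap, and the sample with 1 read, replicate 2, lay below the limit of detection. For Itgae the log2 fold change was -2.41 (SE 0.64, edgeR adjusted p = 0.111) and -2.48 (SE 0.69) without replicate 3 of the 0%-Axitinib group. An opposite-strand gene, Haspin, lies within Itgae, and the use of strand in counting was not given in the sources used here.

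Cd209a encodes the mouse relative of DC-SIGN, a C-type lectin of type 2 and monocyte-derived dendritic cells. In the 0%-Axitinib group it was at 19.8, 9.04 and 17.1 CPM, and in the 3%-Axitinib group at 2.53, 0.182 and 2.37 CPM. The 3%-Axitinib samples were all lower, and replicate 2 of that group, with 2 reads, was below the limit of detection. The log2 fold change of -3.16 (SE 0.80, edgeR adjusted p = 0.102) was a mean of 8.96-fold in the fit. It was -3.08 (SE 0.83) without replicate 3 of the 0%-Axitinib group and -2.64 without the sample below the limit. Cd209a belongs to a cluster of similar genes, so reads that match several of them could not be assigned.

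Clec10a encodes MGL1, a lectin for galactose and N-acetylgalactosamine on macrophages and type 2 dendritic cells. Without the drug it was at 195, 122 and 174 CPM, and with the drug at 206, 59.7 and 221 CPM. Replicates 1 and 3 of the 3%-Axitinib group were above every 0%-Axitinib sample, and replicate 2 was below them all. Its log2 fold change was -0.01 (SE 0.48, edgeR adjusted p = 0.992), and the sign changed when replicate 1 or 3 of the 0%-Axitinib group or replicate 2 of the 3%-Axitinib group was left out (0.13, 0.03 and 0.39). Its close copy Mgl2, which marks dermal type 2 dendritic cells, did not move with it. Mgl2 had 39.3, 14.99 and 46.3 CPM against 5.06, 2.37 and 5.15 CPM, with no overlap, and fell by 2.99 on the log2 scale (SE 0.52, edgeR adjusted p = 0.0965).

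Itgax encodes CD11c, which forms complement receptor 4 with the chain of Itgb2 and is carried by dendritic cells, many macrophages and some natural killer cells. The 0%-Axitinib samples had 1392, 2253 and 316 CPM, and the 3%-Axitinib samples 404, 301 and 815 CPM. Replicates 1 and 2 without the drug exceeded every sample with it, while replicate 3 was below 2 of those. With all samples the log2 fold change was -1.38 (SE 0.72, unadjusted p = 0.0967 in edgeR) and did not meet the criterion. It was -0.76 (SE 0.71, unadjusted p = 0.326 in edgeR) without replicate 2 of the 0%-Axitinib group and missed the criterion there too. Without replicate 3 of the 0%-Axitinib group it was -1.85 (SE 0.47, unadjusted p = 0.00720 and adjusted p = 0.0591 in edgeR) and met it. In an exact two-sided permutation test on all samples, whose smallest p is 0.1, Itgax had p = 0.3.

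Siglech encodes a sialic acid-binding lectin of plasmacytoid dendritic cells, also found on microglia and some macrophages, that signals through DAP12. The 0%-Axitinib group had 0.992, 2.22 and 14.3 CPM and the 3%-Axitinib group 0.330, 0.547 and 1.27 CPM. Replicate 3 of the 0%-Axitinib group held 263 reads and the other 5 samples between 3 and 38, and replicate 3 of the 3%-Axitinib group was above replicate 1 of the 0%-Axitinib group. Siglech had a log2 fold change of -2.95 (SE 1.09, unadjusted p = 0.0298 in edgeR) with all samples and -1.08 (SE 0.69, unadjusted p = 0.165 in edgeR) without that sample, where it missed the criterion. It also missed the criterion without replicate 1 (edgeR unadjusted p = 0.0896) or replicate 2 (edgeR unadjusted p = 0.0859) of the 3%-Axitinib group. Without replicate 3 of that group the log2 fold change was -3.68 (edgeR unadjusted p = 0.0429).

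**Figure D2:**
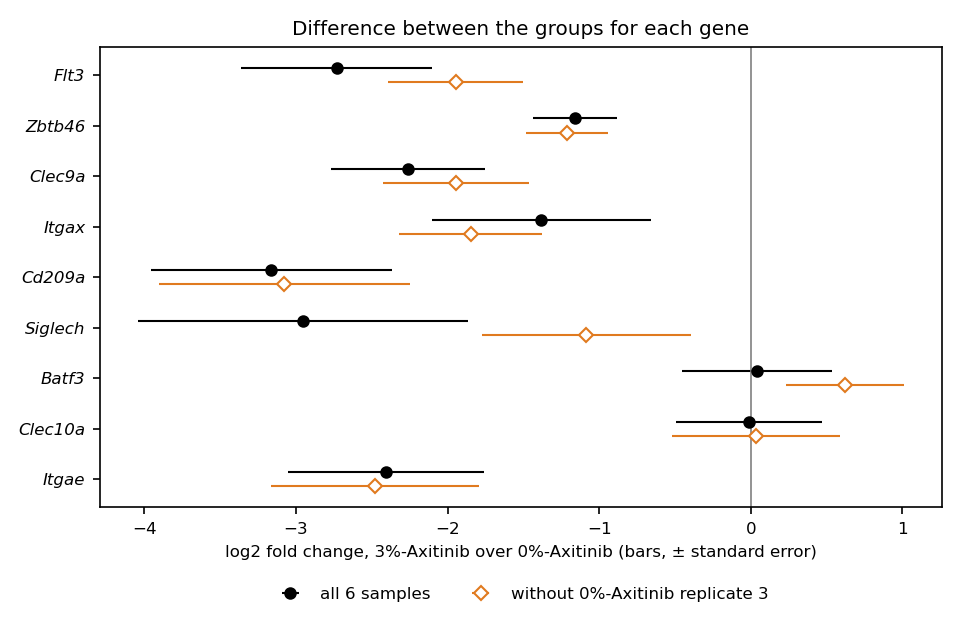
Log2 fold change of each gene, 3%-Axitinib over 0%-Axitinib, with bars of 1 standard error, from all 6 samples (filled circles) and without replicate 3 of the 0%-Axitinib group (open diamonds). Leaving that sample out moved Siglech from -2.95 to -1.08 and Itgax from -1.38 to -1.85, while Zbtb46, Cd209a and Itgae moved by less than 0.1.

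The 9 genes did not share a single profile over the samples. Clec9a and Itgae were the most alike pair, with a root mean square difference of 0.43 between their centred log2 CPM profiles, followed by Flt3 and Clec9a at 0.54. Batf3 and Clec10a were next, at 0.60. Cd209a and Batf3 were the least alike (2.05), followed by Itgax and Siglech (1.97), which were high in different samples of the 0%-Axitinib group. Outside all lists, and among 14170 genes compared, the 6 genes closest to the mean profile of the members over the 6 samples were Gm3608, Stk10, Aoah, Cx3cr1, 5830432E09Rik and 9330175E14Rik, with differences between 0.18 and 0.22. Cx3cr1, the fractalkine receptor of monocytes, macrophages and some dendritic cells, had 18.3, 15.7 and 34.2 CPM without the drug and 7.81, 4.37 and 11.5 CPM with it. Aoah, an enzyme that inactivates bacterial lipopolysaccharide, had 13.4, 12.1 and 19.99 CPM against 3.96, 3.01 and 6.95 CPM. Both were without overlap between the groups, as was the mean profile by which they were chosen, so this is a description only.

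The decrease was next set against other leukocytes. Ptprc, which encodes CD45 on all leukocytes, had 215, 351 and 363 CPM without the drug and 79.7, 81.7 and 98.1 CPM with it. It was itself lower in every 3%-Axitinib sample, with a log2 fold change of -1.84 (SE 0.27, edgeR adjusted p = 0.0965). Relative to Ptprc, none of the 9 genes was lower in every 3%-Axitinib sample, and 0.393% of all tested genes were. Batf3 alone was higher in every 3%-Axitinib sample relative to Ptprc, where 81.6% of all tested genes were, so the other 8 overlapped. The log2 ratio of Flt3 to Ptprc was -6.76, -6.91 and -5.54 in the 0%-Axitinib samples and -6.92, -6.81 and -7.56 in the 3%-Axitinib samples, a mean difference of -0.69. Without replicate 3 of the 0%-Axitinib group this difference was -0.26. For Cd209a the log2 ratio was -3.44, -5.28 and -4.41 against -4.98, -8.81 and -5.37, a mean difference of -2.01, and the groups still overlapped. The value of -8.81, from replicate 2 of the 3%-Axitinib group, rested on 2 reads, below the limit of detection, and lowered this mean. For Batf3 the log2 ratio was -5.86, -6.97 and -5.49 against -4.11, -4.49 and -3.87, a mean difference of 1.95. With overlap, the mean difference was positive for Clec10a (1.61), Itgax (0.70) and Zbtb46 (0.64). It was negative, also with overlap, for Itgae (-1.06, with 1 read in replicate 2 of the 3%-Axitinib group), Siglech (-0.56) and Clec9a (-0.52). Without replicate 3 of the 0%-Axitinib group it changed sign for Siglech (0.40) and Itgax (-0.26). The exact two-sided permutation p was 0.1 for Batf3, the smallest possible, and 0.2 for Flt3 and for Cd209a. The result depended on the genes chosen to stand for leukocytes. Relative to the sum of the 10 genes of all leukocytes, Flt3 (mean log2 difference -1.62), Clec9a (-1.44) and Cd209a (-2.93) were lower in every 3%-Axitinib sample, 3 of the 9 against 1.6% of all tested genes. Without replicate 3 of the 0%-Axitinib group these differences were -1.28, -1.40 and -3.05. Those of Cd209a again held the sample with 2 reads. Batf3 (1.02) was again the only 1 of the 9 that was higher in every sample, where 38.6% of all tested genes were, and the other 5 overlapped.

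Relative to the macrophage genes the picture differed. None of the 12 macrophage genes met the criterion in either direction in edgeR, DESeq2 or limma-voom, although Adgre1 was lower by it once replicate 3 of the 0%-Axitinib group was left out. The list summed to 12218, 12824 and 8880 CPM in the 0%-Axitinib group and 9016, 11370 and 17583 CPM in the 3%-Axitinib group. Its most abundant gene, Lyz2 (lysozyme), had a log2 fold change of 0.21 (SE 0.45). Lyz2 made up 7035 of the 12218 CPM in replicate 1 of the 0%-Axitinib group and 12006 of the 17583 CPM in replicate 3 of the 3%-Axitinib group. Relative to the sum of all 12 genes, 6 of the 9 dendritic cell genes were lower in every 3%-Axitinib sample (12.1% of all tested genes). They were the same 6 that met the criterion. Siglech was so narrowly, at a log2 ratio of -13.59 in replicate 1 of the 0%-Axitinib group and -13.75 in replicate 3 of the 3%-Axitinib group. Ratios to the list without Lyz2 were not taken. None of the 9 was higher in every sample (4.81% of all tested genes). For Zbtb46 the log2 ratio to the sum was -9.51, -10.01 and -9.41 in the 0%-Axitinib samples and -10.39, -11.15 and -11.27 in the 3%-Axitinib samples. Its mean difference of -1.29 was -1.17 without replicate 3 of the 0%-Axitinib group. For Itgax the mean difference was -1.23 with overlap between the groups, and -1.89 without that sample.

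Further genes of each dendritic cell type were examined as lists, described by their counts and medians only. The most abundant gene of a list is the gene with the highest mean CPM over all 6 samples, and in 1 group alone another gene could be higher. Of the 9 other genes of type 1 cells, 3 were lower by the criterion and none was higher, with a median log2 fold change of -0.70, and of -0.61 without replicate 3 of the 0%-Axitinib group. Xcr1, the chemokine receptor by which type 1 cells meet T cells, had 1.77, 1.52 and 3.48 CPM against 0.220, 0.456 and 0.289 CPM. It passed the filter on low counts through 0%-Axitinib samples only, so its place among the 3 is no evidence of a difference. Wdfy4, needed for presenting dead-cell antigen, fell by 1.16 with no overlap. Irf8, a factor of type 1 and plasmacytoid cells, fell by 0.73 with overlap, and it missed the criterion in 4 of the 6 fits that leave out 1 sample, with an edgeR unadjusted p of up to 0.122. Cadm1, the most abundant gene of the list, had a log2 fold change of -0.70 (SE 0.30) and missed the criterion with all samples, but met it without replicate 3 of the 0%-Axitinib group (-0.90), where 4 genes of the list were lower. Cd24a had the higher mean in the 0%-Axitinib group, from 580 CPM in replicate 3 against at most 16.6 CPM in the other samples of that group, and its log2 fold change turned from -3.23 to 0.46 without that sample. Snx22 was higher by it (1.04) when replicate 3 of the 0%-Axitinib group was left out.

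Of the 8 other genes of type 2 cells, 7 could be tested, of which Mgl2 was lower and Tnfsf9, a ligand of the TNF family, was higher by the criterion. The median log2 fold change was -0.26, and -0.25 without replicate 3 of the 0%-Axitinib group. Sirpa, the most abundant, had 864, 1244 and 769 CPM against 555, 545 and 768 CPM, with no overlap but a log2 fold change of -0.62 (SE 0.31) that missed the criterion, which it met without replicate 3 of the 0%-Axitinib group (-0.76). Tnfsf9 had a log2 fold change of 1.48 (SE 0.51) with overlap, and it missed the criterion in 4 of the 6 fits that leave out 1 sample. These were the fits without replicate 2 or 3 of the 0%-Axitinib group or replicate 1 or 3 of the 3%-Axitinib group, with log2 fold changes down to 1.04. Mgl2 met it in all 6.

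For plasmacytoid cells, 9 of 12 genes could be tested, with a median log2 fold change of -0.29. Spib and Bcl11a, transcription factors of this lineage and of B cells, were lower by the criterion. Spib had 1.20, 2.86 and 30.0 CPM in the 0%-Axitinib group and Bcl11a 0.470, 1.05 and 13.2 CPM, so both were high in replicate 3 alone, as Siglech was. Without that sample no gene of the list was lower by the criterion in edgeR, and both genes also missed it without replicate 2 or replicate 3 of the 3%-Axitinib group. The number of lower genes was 4 without replicate 1 of either group. Cox6a2 was higher by it in edgeR but not in limma-voom, at 103, 1.73 and 52.8 CPM in the 3%-Axitinib group against at most 2.72 CPM. It also encodes a respiratory chain subunit of striated muscle and was high in the samples with muscle genes. Bst2, the most abundant gene, had a log2 fold change of -0.24 (SE 0.38).

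Of the genes of mature migratory dendritic cells, 11 of 14 could be tested and 1 was lower, with a median of -0.31, and of -0.00 without replicate 3 of the 0%-Axitinib group. This was Cd83, a surface protein of activated cells, at 114, 126 and 51.4 CPM against 38.5, 36.9 and 55.3 CPM. Its log2 fold change was -1.16 (SE 0.36) with overlap, and -1.46 without replicate 3 of the 0%-Axitinib group. It missed the criterion without replicate 2 of the 0%-Axitinib group or replicate 1 or 2 of the 3%-Axitinib group, with an edgeR unadjusted p of up to 0.0607, although 1 or 2 other genes of the list met it then. Fscn1, which bundles actin in mature cells and was the most abundant, had a log2 fold change of -0.69 (SE 0.44). Ccr7, the receptor that guides dendritic cells to lymph nodes, had 5.12, 2.92 and 11.8 CPM against 8.36, 1.28 and 2.61 CPM, and the groups overlapped.

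Ligands and partners of the 9 gene products were examined next. Flt3l, the ligand of FLT3, had no read in any sample, and in the annotation it overlaps Gm45713 on the same strand, so this 0 was not read as its level. Of the 7 tested growth factors and receptors of dendritic cells, 1 was lower and 1 was higher. Ltb, a lymphotoxin chain, had 212 CPM in replicate 3 of the 0%-Axitinib group and at most 6.18 CPM elsewhere, and it missed the criterion without that sample (-0.64) or without any 1 of the 3%-Axitinib samples. Csf2ra (-0.74) and Csf2rb (-1.39), chains of the receptor for GM-CSF, were lower by the criterion without replicate 3 of the 0%-Axitinib group but not with all samples. Ltbr, the receptor for lymphotoxin, had 87.4, 87.3 and 73.1 CPM against 130, 140 and 127 CPM. Ltbr was higher in every 3%-Axitinib sample, with a log2 fold change of 0.68 (SE 0.18, edgeR adjusted p = 0.108). It met the criterion whichever sample was left out but not under scaling to total counts. Csf1r, the most abundant, had a log2 fold change of -0.20 (SE 0.33). Among 9 tested partners, Syk, the kinase downstream of CLEC9A, was lower by the criterion (-0.81, SE 0.33) with overlap, and it missed it without replicate 1 or 2 of either group (edgeR unadjusted p up to 0.155). Without replicate 3 of the 0%-Axitinib group, Syk (-1.01) and Cdh1 (-1.05) were both lower, and without replicate 2 of either group no partner was. Itgb2, the partner of CD11c and the most abundant, had a log2 fold change of -0.77 (SE 0.53), and Itgb7, the partner of CD103, -0.55 (SE 0.27).

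C-type lectins beyond the members split in direction. Of 10 such genes of myeloid cells, 4 were lower and 1 was higher by the criterion, with a median log2 fold change of -0.80 (-0.63 without replicate 3 of the 0%-Axitinib group). The lower genes were Clec7a (dectin-1, a receptor for fungal glucan), Clec4a3, Clec12a and Ly75 (DEC-205), each with no overlap between the groups. Clec7a had 135, 242 and 118 CPM against 46.3, 43.7 and 67.2 CPM. Ly75, an antigen receptor of type 1 cells, had 8.56, 14.5 and 47.5 CPM against 4.84, 2.73 and 2.55 CPM. Both met the criterion whichever sample was left out, while Clec4a3 and Clec12a each missed it in 3 of those 6 fits (edgeR unadjusted p up to 0.0771), and 2 genes of the list were lower without replicate 1 of the 3%-Axitinib group. Clec4d was higher in every 3%-Axitinib sample (0.83, SE 0.33), but it missed the criterion when any sample other than replicate 2 of the 0%-Axitinib group was left out, and under scaling to total counts. Its log2 fold change was then as low as 0.56. Mrc1, the mannose receptor and the most abundant, had a log2 fold change of -0.23 (SE 0.33).

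The other genes of the CD209 cluster were examined beside Cd209a. All 6 had a negative log2 fold change and 4 were lower by the criterion (Cd209c, Cd209d, Cd209e and Cd209f), with a median of -2.37, and of -2.11 without replicate 3 of the 0%-Axitinib group. All 4 met it whichever sample was left out. Their summed level was 104, 44.6 and 105 CPM against 41.6, 6.10 and 16.1 CPM with the drug. All 3%-Axitinib samples were lower, and replicate 2 was the lowest, as for Cd209a. The most abundant of them, Cd209g, had a log2 fold change of -1.88 (SE 0.83) and missed the criterion with overlap between the groups, as did Cd209b. Since Cd209c and Cd209e passed the filter through 0%-Axitinib samples only, and since the genes are similar in sequence, the count is a description.

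Class II genes, which dendritic cells share with B cells and activated macrophages, were also examined. Of 9 tested genes, 8 were lower by the criterion and all 9 were below in every 3%-Axitinib sample, with a median log2 fold change of -2.99, and of -2.07 without replicate 3 of the 0%-Axitinib group, where 8 again met it. The lower genes were H2-Aa, H2-Ab1, H2-Eb1, H2-DMb1, H2-DMb2, H2-Ob, Cd74 and Ciita, of which H2-Ob passed the filter through 0%-Axitinib samples only and H2-DMb2 missed the criterion without replicate 1 or 2 of the 3%-Axitinib group. Cd74, the invariant chain and the most abundant, had 722, 923 and 2084 CPM against 219, 108 and 264 CPM. Ciita, the master regulator of these genes, had 10.6, 12.2 and 16.1 CPM against 1.54, 0.911 and 2.37 CPM, and fell by 2.99 on the log2 scale (SE 0.43, edgeR adjusted p = 0.0965). H2-DMa missed the criterion (-0.94), and its log2 fold change was -0.26 without replicate 3 of the 0%-Axitinib group. For Ciita the groups lay far apart with or without replicate 3 of the 0%-Axitinib group (-2.80).

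**Figure D3:**
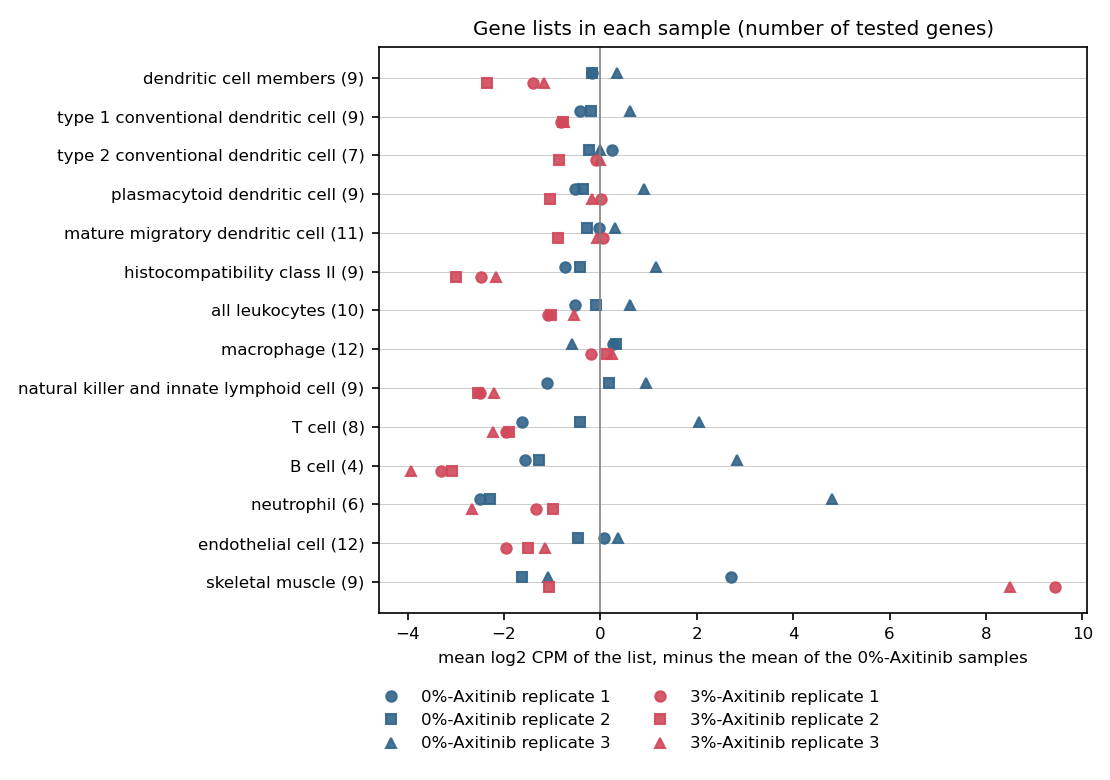
Mean log2 CPM of each gene list in each sample, minus the mean of the 0%-Axitinib samples, with the number of tested genes in parentheses. Replicate 3 of the 0%-Axitinib group (blue triangles) stands apart in the T cell, B cell and neutrophil lists, and replicates 1 and 3 of the 3%-Axitinib group stand apart in the skeletal muscle list.

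Genes of other cell types were examined too, and their part in the results was not tested. Endothelial genes were lower in 11 of 12 cases by the criterion (Pecam1, Cdh5, Kdr, Tie1, Tek, Emcn, Egfl7, Esam, Cldn5, Erg and Robo4), with a median log2 fold change of -1.46, and between 8 and 11 met it as single samples were left out. They summed to 998, 676 and 1101 CPM against 279, 312 and 427 CPM, and Pecam1, the most abundant, had 251, 143 and 245 CPM against 50.9, 76.2 and 81.8 CPM. Of the 10 genes of all leukocytes, 3 were lower (Ptprc, Lcp1 and Ptpn6), with a median of -1.06, and of -0.53 without replicate 3 of the 0%-Axitinib group. Their number ranged from 1 to 7 as single samples were left out, with 1 without replicate 1 or 2 of the 3%-Axitinib group and 7 without replicate 1 of the 0%-Axitinib group. Laptm5, the most abundant of these, had a log2 fold change of -0.50 (SE 0.35).

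The lists of lymphocytes were examined next. For natural killer and innate lymphoid cells 8 of 9 genes were lower (Ncr1, Klrb1c, Klrk1, Eomes, Gzma, Prf1, Gata3 and Il2rb), with a median log2 fold change of -3.42, and of -2.11 without replicate 3 of the 0%-Axitinib group. Of these, Klrb1c and Eomes passed the filter through 0%-Axitinib samples only. Gata3, whose groups overlapped, missed the criterion in 4 of the 6 fits that leave out 1 sample and Prf1 in 2, both among them without replicate 3 of the 0%-Axitinib group, and limma-voom had 4 genes of the list lower. The list summed to 178, 403 and 161 CPM against 115, 106 and 127 CPM, and Il7r, its most abundant gene, had a log2 fold change of -0.78 (SE 0.65), and of -1.25 (SE 0.34) without replicate 3 of the 0%-Axitinib group, where it met the criterion. Of 8 tested T cell genes 5 were lower (Cd3e, Cd247, Cd4, Lck and Trbc2), of which Cd247 passed the filter in the same way, and their number was between 3 (without that sample or replicate 3 of the 3%-Axitinib group) and 10 (without replicate 1 of the 0%-Axitinib group, where more genes could be tested), and 2 in limma-voom. The list summed to 21.1, 40.5 and 298 CPM against 18.5, 12.6 and 17.8 CPM, and Cd3d, its most abundant gene, was too low to be tested, with 66.7 CPM in replicate 3 of the 0%-Axitinib group. Cd4, which dendritic cells and macrophages can also carry, had 6.06, 8.63 and 24.2 CPM against 0.660, 0.820 and 1.16 CPM. All 4 tested B cell genes were lower (Ms4a1, Cd79a, Cd79b and Blk), of which Ms4a1 and Blk were tested through 0%-Axitinib samples only, and 1 met the criterion without replicate 3 of the 3%-Axitinib group, 1 in limma-voom and 2 in DESeq2. Cd79a, the most abundant, had 1.67, 2.33 and 101 CPM against 0.660, 0.547 and 0.521 CPM.

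Among other myeloid cells, S100a9 and Retnlg of 6 tested neutrophil genes were lower by the criterion, and neither was without replicate 3 of the 0%-Axitinib group or without any 1 of the 3%-Axitinib samples, while 6 genes were without replicate 1 or 2 of the 0%-Axitinib group. S100a9, the most abundant, had 13.8, 20.1 and 10660 CPM against 29.1, 43.2 and 6.08 CPM. The median of this list was -4.59 with replicate 3 of the 0%-Axitinib group and 0.94 without it, where S100a8 was higher by the criterion (1.98). Of 7 monocyte genes, Ccr2 was lower (54.9, 50.1 and 235 CPM against 24.7, 26.9 and 14.6 CPM) and Vcan was higher, joined by Chil3 without replicate 3 of the 0%-Axitinib group, 1 to 3 genes were lower as single samples were left out, and the median changed from -1.50 to 0.44 without that sample. Fn1, the most abundant of these, had a log2 fold change of 0.80 (SE 0.66). CCR2 guides monocytes, from which some dendritic cells arise, out of the blood.

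In the surrounding tissue, 7 of 9 tested skeletal muscle genes were higher (Ckm, Actn2, Actn3, Myh1, Tnnt3, Mylpf and Ttn), and Acta1, the most abundant, had 3924 and 1852 CPM in replicates 1 and 3 of the 3%-Axitinib group but 0.0911 CPM in replicate 2. No muscle gene met the criterion in limma-voom. Replicate 2, with 15.9 CPM of muscle genes, had the lowest level of the 3%-Axitinib group for 7 of the 9 dendritic cell genes, the exceptions being Flt3, where it was the highest, and Siglech, where it was in between. Without replicate 2, 5 of the 9 genes were lower by the criterion (9.28% of all genes tested then). Col1a1, the most abundant fibroblast gene, was higher by the criterion, with 30639 CPM in replicate 2 of the 3%-Axitinib group, and missed it in 4 of the 6 fits that leave out 1 sample, that one among them (0.83 at the lowest). Of 5 adipocyte genes Lep, which passed the filter through 0%-Axitinib samples only, and Fabp4, the most abundant, were lower, and all 5 were without replicate 1 of the 3%-Axitinib group. Of 3 tested genes of Langerhans cells and epidermis, Krt10 was lower and reached 222 CPM in replicate 2 of the 0%-Axitinib group alone, with a log2 fold change of 0.52 without that sample. Langerin (Cd207), a marker of Langerhans cells though not of these alone, was at no more than 2.44 CPM in any sample.

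The sequences before the gene starts were searched for motifs of factors known in dendritic cells. RefSeq windows of 250 bases before to 50 bases after the start matched 7 of the 9 genes by symbol (Clec10a and Itgae were not matched), among 32851 windows on GRCm38.p6, read on both strands. The AP-1 site TGANTCA, which BATF3 and its JUN partners bind, occurred in 7.81% of all windows and in those of Zbtb46 and Itgax. The ETS-IRF composite element (GGAA, 2 bases of any kind, GAAA), bound by PU.1 with IRF4 or IRF8, occurred in 2.72% of all windows and in that of Cd209a. The PU box GAGGAA, which can overlap the composite element, occurred in 28.3% of windows, among them those of Batf3 and Siglech. The interferon-stimulated response element (GAAA, 2 bases of any kind, GAAA) occurred in 3.44% of windows and in none of the 7. A match is a description of the letters only. The sites are shown with 10 bases on each side, 5′ to 3′ on the strand of the gene, with the motif in capitals, for the AP-1 and composite matches.
Itgax, chr7:128129484-128129510, plus strand, before the gene: ccacctcctcTGAGTCAcgctgacaac
Zbtb46, chr2:181424433-181424459, minus strand, in an intron of the longer annotated gene: ccatttacctTGACTCAtttcacagca
Cd209a, chr8:3748974-3749003, minus strand, across the first annotated base of the gene: cacttctcaaTTTCTCTTCCtaagtaagat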

How the data were processed

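RNA was measured in 3 samples of the 0%-Axitinib group and 3 of the 3%-Axitinib group. The authors deposited raw read counts per gene, made from poly(A) RNA by filtering with fastp and mapping with STAR (2.5.2b in the submitters' processing notes) to mm10. The annotation release and the use of strand in counting were not given in the sources used here, so genes that overlap on opposite strands cannot be told apart. The table held 4 summary lines, which were kept out of library sizes: unmapped reads made up 3.84% to 48.4% of a library and reads on overlapping genes 3.55% to 5.74%.

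Tests were run with edgeR 4.0.16 under R 4.3.3. Genes were kept by filterByExpr (minimum count 10, minimum total 15) and libraries scaled by TMM before the quasi-likelihood test, and p-values were adjusted by Benjamini and Hochberg's method over 15257 genes. The SE is the absolute log2 fold change divided by the square root of F. CPM are given after TMM, and log2 CPM with a prior count of 2. Single values were compared by exact two-sided permutation tests. DESeq2 1.42.0 and limma 3.58.1 (voom) served as alternatives, and all tests were tested on simulated data first. Gene positions and exon lengths came from GENCODE M21 (GRCm38), which holds 91.0% of the gene names in the table. Plots were made in Python 3.11.15 (matplotlib 3.10.9).

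The members and the 21 other lists were chosen with earlier results of these data known. Named in the text are all 9 members, the most abundant gene of each list, the genes of each list that met the criterion, and the 6 genes outside all lists with a mean of at least 1 CPM whose profile was closest to that of the members. Adgre1, Snx22, Cd24a, Csf2ra, Csf2rb, Cdh1, Chil3, S100a8, Cd209b, H2-DMa, Clec1b, Gm26597, Gm45713, Haspin, Ccr7, Itgb7, Cd207 and Flt3l were named after their values were seen.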

Additional observations from a re-analysis of the deposited data

How the results depend on the processing

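Depth limits the genes at a few CPM: in the 3%-Axitinib samples Flt3, Clec9a, Cd209a, Siglech and Itgae rested on between 1 and 41 reads, near or below the limit of 3 counts in some samples. The number of genes lower by the criterion stayed within 1.5-fold of 1785 under every alternative run at that criterion. The number that were higher was 1456, and between 1055 and 2274 with single samples left out. With both replicate 3 of the 0%-Axitinib group and replicate 2 of the 3%-Axitinib group left out, an alternative chosen after seeing the data, 2346 genes were higher and 1572 had an edgeR adjusted p of at most 0.05. The latter count was 1 with all samples, between 0 and 1252 with single samples left out, 15 without a filter, 1960 with DESeq2, 2 with limma-voom and 2 with the replicate block. The cause of these differences was not tested. Scaling to total counts moved the median log2 fold change of all tested genes from -0.03 to -0.16, and the criterion then called 2448 genes lower and 989 higher, so that 71.2% of the calls were lower, against 55.1% with TMM. The replicate numbers are not stated to mark a shared mouse, batch or day. Deviations of same-numbered samples correlated at 0.18, -0.12 and -0.17, and those of differently numbered samples at -0.22 to 0.21. With 3 samples per group this cannot decide whether the numbers pair the samples. With the replicate block 1354 genes (8.87%) were lower and 6 of the 9 members were. Of the members, 5 to 6 were lower with single samples left out (8.24% to 13.7% of all genes tested), and 1 with at least 10 counts in every sample (12.0%), where only 4 could be tested. With a fold change of at least 2 and a p of at most 0.01 in edgeR, 5 were lower (3.18% of all tested genes). Batf3 had a negative log2 fold change under scaling to total counts (-0.086) and between -0.24 and 0.62 with single samples left out. With both samples left out it was at 0.81 (edgeR unadjusted p = 0.0726). Clec10a lay between -0.30 and 0.39 with single samples left out and at 0.43 with both samples left out. Siglech also missed the criterion with limma-voom (unadjusted p = 0.149), and Itgax met it with DESeq2 (unadjusted p = 0.0375). With both samples left out, Siglech missed it (-0.89, edgeR unadjusted p = 0.272) and Itgax met it (-1.58, edgeR unadjusted p = 0.0113). Among the lists, limma-voom had 1 gene of plasmacytoid cells, none of neutrophils and 5 of adipocytes lower, and neither Ltb nor Krt10 met the criterion. Without a filter on low counts, 7 genes of neutrophils, 8 of B cells, 10 of T cells and 4 of plasmacytoid cells were lower. With at least 10 counts in every sample, none of 2 tested T cell genes was lower. In that setting 1 of 2 tested genes of natural killer and innate lymphoid cells was. The replicate block had none of plasmacytoid cells, mature cells, growth factors, partners, epidermis and neutrophils lower, 3 of T cells, 2 of B cells and 5 of all leukocytes, with Col1a1 no longer higher, and scaling to total counts had 5 of type 1 cells, 2 of type 2 cells, 2 of the partners, 6 of the lectins and 5 of all leukocytes lower, and Col1a1 not higher. DESeq2 had 2 of type 2 cells, 1 of neutrophils, none of epidermis and 5 of all leukocytes lower, and 2 of fibroblasts higher. Of the other alternatives for single members, 114 kept their direction and their side of the criterion.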
